A study of Mus musculus with 2 samples.

Results

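Conventional CD4 T cells of mouse liver tumors were read as 437 cells out of 21304 quality-filtered cell barcodes, 187 of 11451 in FABP5 hKO tumors and 250 of 9853 in WT tumors. They were chosen by transcripts: at least 1 unique molecular identifier (UMI, 1 captured transcript) of Cd3d, Cd3e or Cd3g and at least 1 of Cd4 or Cd40lg. Cells with any UMI of Cd8a, Cd8b1, Foxp3, Trdc, Siglech, Cd79a or F13a1, or more than 2 UMIs of the C1q genes together, were left out. A barcode had to hold at least 500 UMIs and 200 genes, with at most 25% mitochondrial UMIs.

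The hKO library came from mice in which Fabp5, a fatty acid binding protein gene, was deleted by the tamoxifen-inducible Alb-Cre-ER, so that deletion is directed to hepatocytes and not to T cells. The WT library came from littermates without the deletion. All mice were C57BL/6J, received tamoxifen at 6 to 8 weeks of age (100 mg/kg after 16 h of fasting, 5 injections 3 days apart) and, 2 weeks later, CD-HFD, the choline-deficient high-fat diet, for 15 months. Each library pooled 2 to 3 hepatocellular carcinomas, dissociated in collagenase (1 h, 37 °C) and passed through a 40 µm filter, and was made with droplet-based 3′ chemistry. There was 1 library per group, and no result has a test. The values describe the 2 pools that were sequenced, and every 95% interval below covers counting error only.

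CD4 T cells recognize peptides on MHC class II and act mainly by cytokines and by CD40 ligand, the surface signal encoded by Cd40lg. Naive cells recirculate through lymph nodes under the transcription factors TCF1 (Tcf7) and LEF1. Effector cells are grouped as Th1 (T-bet, interferon gamma), Th2 (GATA3), Th17 (IL-17A) and follicular helper cells (BCL6). In liver tissue, cells retained near the sinusoids often carry the chemokine receptor CXCR6.

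The promoters of 4 genes that the results turn on are shown, since Gzmk, Tnfrsf4 and Il23r separate cells within the gate and Il7r is a survival receptor followed through the comparison of the libraries. They span 250 bases before to 50 after the start of the gene in RefSeq (GRCm38.p6), read 5′ to 3′ along the gene. Capitals mark matches on either strand to GGAAA (the NFAT core), TGANTCA (AP-1), TCACAC (the T-box core) or AGGTCA (bound by nuclear receptors), which occur in 61.3%, 7.81%, 14.5% and 16.3% of 32851 promoters of this length.
Gzmk, granzyme K, chr13:113180916-113181215, minus strand: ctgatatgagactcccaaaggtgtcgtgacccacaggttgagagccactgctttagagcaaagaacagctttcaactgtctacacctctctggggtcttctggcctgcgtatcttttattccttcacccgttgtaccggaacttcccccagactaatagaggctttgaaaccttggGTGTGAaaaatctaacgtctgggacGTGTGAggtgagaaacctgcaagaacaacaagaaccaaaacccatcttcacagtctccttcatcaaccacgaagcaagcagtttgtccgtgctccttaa
Tnfrsf4, OX40, chr4:156013445-156013744, plus strand: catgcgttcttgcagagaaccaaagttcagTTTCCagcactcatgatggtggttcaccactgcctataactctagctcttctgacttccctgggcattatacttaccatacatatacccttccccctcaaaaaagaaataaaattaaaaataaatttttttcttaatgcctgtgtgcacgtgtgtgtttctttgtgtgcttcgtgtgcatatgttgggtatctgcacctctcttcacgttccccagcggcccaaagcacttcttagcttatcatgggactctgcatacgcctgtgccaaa
Il23r, the IL-23 receptor, chr6:67491806-67492105, minus strand: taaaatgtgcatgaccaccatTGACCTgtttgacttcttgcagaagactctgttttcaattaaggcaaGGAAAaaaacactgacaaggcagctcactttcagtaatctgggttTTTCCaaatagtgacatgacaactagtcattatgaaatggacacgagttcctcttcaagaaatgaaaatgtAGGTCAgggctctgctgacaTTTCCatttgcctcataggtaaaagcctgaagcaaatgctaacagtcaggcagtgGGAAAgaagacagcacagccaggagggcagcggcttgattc
Il7r, the IL-7 receptor alpha chain, chr15:9529827-9530126, minus strand: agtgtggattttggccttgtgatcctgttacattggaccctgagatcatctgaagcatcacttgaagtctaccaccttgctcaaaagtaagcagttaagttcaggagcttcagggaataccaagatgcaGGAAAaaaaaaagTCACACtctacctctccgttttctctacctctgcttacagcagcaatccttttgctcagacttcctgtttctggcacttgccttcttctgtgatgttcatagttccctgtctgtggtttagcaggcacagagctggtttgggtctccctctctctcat
The Gzmk promoter held 2 T-box core matches, Tnfrsf4 held 1 NFAT core match, and Il7r held 1 of each. The Il23r promoter held 4 NFAT core and 2 nuclear receptor matches, and no match to one motif overlapped a match to another. None held TGANTCA. These are letter matches, with no binding measured here.

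The T cell label held in the receptor genes that the gate did not use. Trac, the alpha chain constant gene, had a UMI in 127 of 187 hKO cells (67.9%) and 182 of 250 WT cells (72.8%), against 1.11% and 0.773% of kept barcodes with no Cd3 UMI. Trbc2, a beta chain constant gene, had one in 81.3% of hKO and 86.0% of WT cells, against 2.68% and 3.31% of those other barcodes. Tcrg-C1, a gamma chain constant gene, had one in 11 hKO cells (5.88%) and 15 WT cells (6.00%), also above the 0.140% and 0.131% of those other barcodes. As a description of the gate, Cd4 was found in 77.5% of hKO and 75.2% of WT cells, Cd40lg in 32.1% and 44.0%, and Cd3e in 79.7% and 79.6%.

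Many cells sat at the edges of the gate. A single UMI of Cd4 and Cd40lg together let in 102 of the hKO and 117 of the WT cells, and 398 hKO and 391 WT barcodes that met every other condition had none. Just outside the other limits were 15 hKO and 10 WT barcodes with 3 C1q UMIs, 10 and 15 with 1 Foxp3 UMI, and 4 and 14 with 1 Cd8 UMI. Median depth was 3715 UMIs per hKO cell and 3935 per WT cell, the sums were 778646 and 1145866 UMIs, and median mitochondrial shares were 9.24% and 6.30%. The libraries shared 73 barcodes in all, and 0 barcodes belonged to a gated cell in both libraries.

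Transcripts of other cell types were present, unevenly between the libraries. Genes of 12 hepatocyte markers, led by albumin, made up 0.921% of UMIs in hKO cells and 0.217% in WT cells, and were found in 187 of 187 hKO and 236 of 250 WT cells. Endothelial markers made up 0.0331% of hKO and 0.307% of WT UMIs, with 10 of 10 genes found in hKO cells, and 32 WT cells with at least 10 such UMIs held 90.7% of the WT ones. Erythroid markers made up 0.535% and 0.917%, macrophage and monocyte markers 0.329% and 0.202%, and neutrophil markers 0.0384% and 0.00140%, of hKO and WT UMIs. Of 10 B cell markers, 6 had 0 UMIs in hKO cells, among them Ms4a1, Ighd and Pax5.

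For this reason results are also given with the barcodes richest in those markers left out, a limit set after the data were seen. It left out cells with at least 50 hepatocyte, 20 macrophage and monocyte, 10 endothelial, erythroid, neutrophil, dendritic or B cell, or 3 CD8 and gamma-delta marker UMIs. This kept 128 hKO and 181 WT cells, called the trimmed set below. Hepatocyte markers were still 0.522% of hKO and 0.198% of WT UMIs there, and endothelial markers 0.0138% and 0.0387%.

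**Figure D1:**
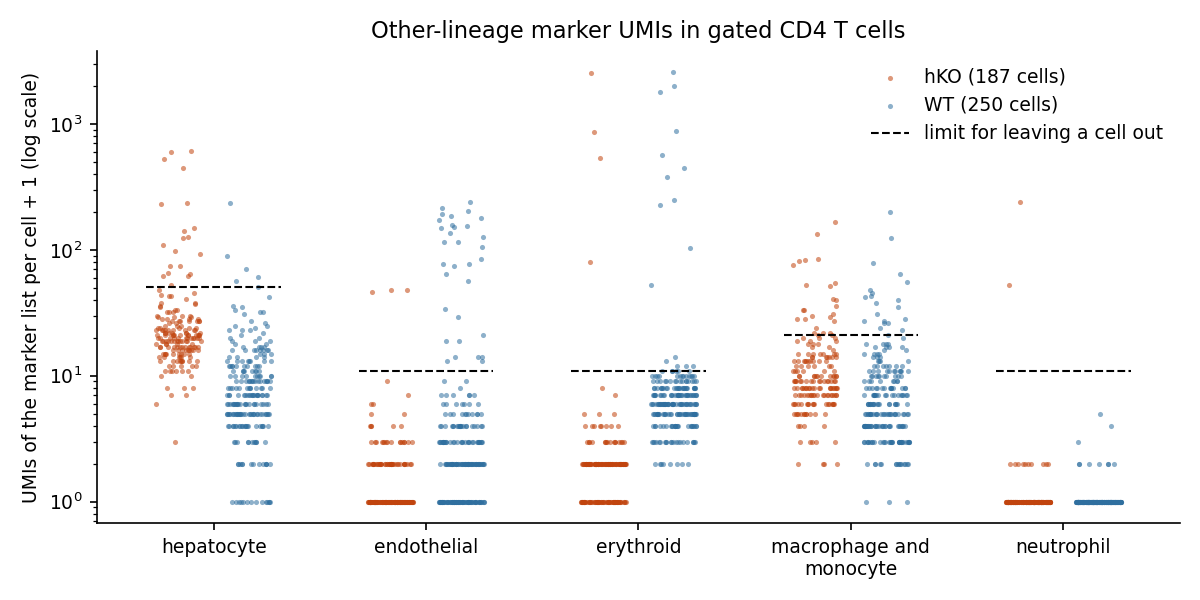
UMIs of 5 marker lists in each gated CD4 T cell (log scale, 1 added), with hKO cells left of WT cells and dashed lines at the limits of the trimmed set. Hepatocyte transcripts lie higher across nearly the whole hKO set, with 20 hKO and 6 WT cells at 50 UMIs or more, while endothelial UMIs come from 3 hKO and 32 WT cells at 10 or more.

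Within the gate, cells that entered on Cd40lg alone differed from cells with a Cd4 UMI in both libraries. This split, chosen after the data were seen and made on the trimmed set, compared 27 hKO cells without a Cd4 UMI with 101 that had one, and 47 WT cells with 134. Differences are called by a rule of size: a level of 50 CPM (UMIs per 1000000 UMIs of the set) or more on either side, a log2 ratio of 1 or more in either direction, and an interval clear of 0. By this rule 48 genes (1.39% of 3445 compared) were higher in cells without a Cd4 UMI in both libraries and 30 (0.871%) were lower.

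The genes higher without Cd4 were led by Zbtb16, the PLZF transcription factor of innate-like lymphocytes. It stood at 281.9 CPM without and 2.72 CPM with a Cd4 UMI in hKO, and at 190.9 and 0 CPM in WT. Il23r, the receptor for IL-23, was also among the leading genes, with 386.4 and 5.43 CPM in hKO and 92.9 and 0 CPM in WT. Its level without Cd4 rests on few cells. In the trimmed set its 39 hKO UMIs lay in 13 cells and its 18 WT UMIs in 4 cells. Zbtb16 and Il23r were thus almost absent from cells in which Cd4 was detected, but most cells without Cd4 had no Il23r UMI either. Il1r1, the IL-1 receptor, was at 188.0 and 10.9 CPM in hKO and 113.5 and 0 CPM in WT, and Clnk, a signaling adaptor, at 229.7 and 0 CPM in hKO and 227.0 and 10.4 CPM in WT. Median depths did not favor the cells with Cd4, at 3569 UMIs without and 3348 with Cd4 in hKO and 3925 and 3424 in WT.

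The genes higher with Cd4 were effector and costimulatory ones. Gzmk, encoding granzyme K, had 41.8 CPM without and 317.9 CPM with a Cd4 UMI in hKO, and 20.6 and 295.1 CPM in WT. Tnfrsf4, the costimulatory receptor OX40, had 10.4 and 106.0 CPM in hKO and 15.5 and 108.1 CPM in WT. The granzyme and OX40 were both low without Cd4 in both libraries. Eomes, a T-box factor, had 0 UMIs without Cd4 in both libraries, beside 152.2 CPM in hKO and 91.4 CPM in WT cells with it. Il10, an inhibitory cytokine, likewise had 0 UMIs without Cd4, beside 111.4 CPM in hKO and 76.9 CPM in WT cells with it. Ccl5, an inflammatory chemokine, had 1044 and 11788 CPM in hKO and 1377 and 4174 CPM in WT.

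**Figure D2:**
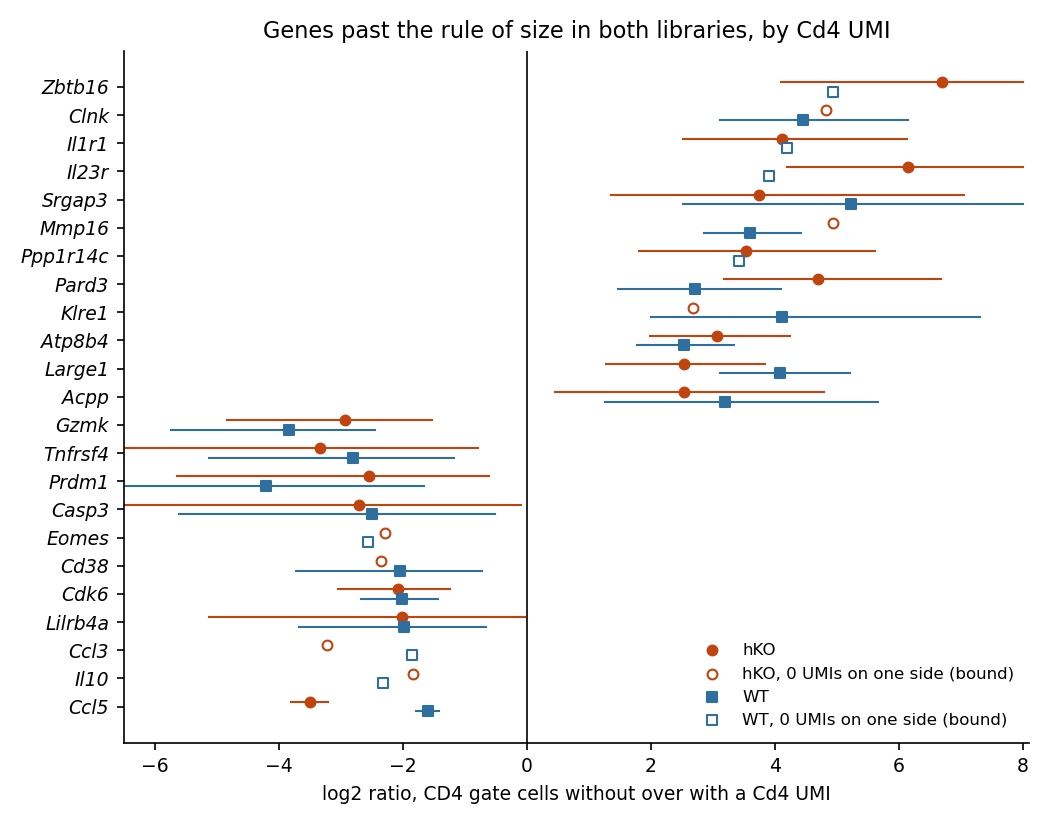
Log2 ratio of cells without over cells with a Cd4 UMI, in hKO (circles) and WT (squares), for 12 genes higher and 11 lower by the rule of size in both libraries, with 95% counting intervals. Open symbols are bounds where one side had 0 UMIs. The libraries lie on the same side of 0 for each gene shown because the rule requires it.

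The gated cells were set beside the 401 hKO and 573 WT cells of a CD8 gate made with the same limits. In both libraries 34 genes (1.01% of 3371) were higher and 22 (0.653%) lower in the CD4 cells. Tnfrsf4 stood at 80.9 CPM in CD4 and 3.63 CPM in CD8 cells of hKO, and at 62.0 and 3.51 CPM in WT. Icos, a costimulatory receptor of helper cells, stood at 184.9 and 47.2 CPM in hKO and 183.3 and 50.5 CPM in WT. Izumo1r, encoding folate receptor 4, Il1r1 and Capg were also among the 10 leading genes, and Ctla4, an inhibitory receptor, was higher by 1.35 (log2) in hKO and 1.22 in WT. Ikzf2, a gene of regulatory T cells, was higher by 1.08 in hKO and 1.52 in WT. Regulatory cells whose Foxp3 went undetected can be among the gated CD4 cells, and their part in these differences was not tested.

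Several cytotoxic genes were lower in CD4 than in CD8 cells. Gzma, encoding granzyme A, had 1.28 CPM in CD4 and 213.8 CPM in CD8 cells of hKO, and 21.8 and 712.3 CPM in WT. Cd160, Klrd1, Slamf7 and Prf1 (perforin) were lower in CD4 cells in both libraries as well, while Gzmk had 223.5 CPM in CD4 and 207.0 CPM in CD8 cells of hKO and 159.7 and 301.1 CPM in WT. The chemokine gene Ccl4 lay on the CD8 side in WT and level in hKO. It had 553.5 CPM in CD4 and 550.6 CPM in CD8 cells of hKO, but 140.5 and 1035 CPM in WT.

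A gate with the same limits and a Foxp3 UMI held 20 hKO and 23 WT regulatory T cells. Against them 40 genes (1.14% of 3506) were higher and 25 (0.713%) lower in both libraries. Ccl5 had 8971 CPM in conventional and 806.8 CPM in regulatory cells of hKO, and 2658 and 209.3 CPM in WT. Gzmk had 0 UMIs in the regulatory cells of both libraries, and Bcl2, a survival gene, and Themis, a T cell receptor signaling protein, were higher in conventional cells. Ikzf2, the Helios factor of regulatory cells, had 854.0 CPM in conventional and 4637 CPM in regulatory cells of hKO, and 804.6 and 3013 CPM in WT. Areg, a tissue repair factor, and Itgae, an integrin of tissue lymphocytes, were lower in conventional cells in both libraries.

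Cells with and without Cxcr6 differed in both libraries. A Cxcr6 UMI was found in 58 hKO and 66 WT cells of the trimmed set, with none in 70 and 115 (a split chosen after the data were seen). Of 3420 genes, 21 (0.614%) were higher and 29 (0.848%) lower with Cxcr6 in both libraries. Slamf6, a receptor of memory-like and follicular helper cells, had 44.1 CPM with and 282.8 CPM without Cxcr6 in hKO, and 70.6 and 549.1 CPM in WT. S1pr1, the receptor for exit into blood, had 44.1 and 135.1 CPM in hKO and 29.7 and 147.7 CPM in WT. Il23r, Zbtb16 and Il1r1 were among the 10 genes leading on the Cxcr6-positive side in both libraries. Tcf7 had 97.0 CPM with and 223.7 CPM without Cxcr6 in hKO, and 122.7 and 371.8 CPM in WT. Cells with a Cxcr6 UMI were somewhat deeper, at medians of 3563 and 3132.5 UMIs with and without it in hKO and 3757 and 3413 in WT.

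The share of cells with Cxcr6, picked for this comparison after the values were seen, depended on the depth at which it was read. Of all gated cells, 84 hKO cells (44.9%) and 88 WT cells (35.2%) had a Cxcr6 UMI. With each cell thinned to 1000 UMIs to remove differences in depth, it was left in 35 of 187 hKO cells (18.7%, 13.4 to 25.1) and 40 of 250 WT cells (16.0%, 11.7 to 21.1). Thinned to 2000 UMIs, which left out 16 hKO and 14 WT cells, the shares were 35.1% in hKO and 23.7% in WT. The difference, 2.72 percentage points at 1000 UMIs, ranged from −0.41 to 11.4 over the alternatives run, so no direction is read from it. Each thinned share, here and below, comes from a single random draw, and alternatives that changed the cells drew anew. This range therefore mixes the settings with drawing error, which the intervals do not cover. Barcodes with no Cd3 UMI had a Cxcr6 UMI in 0.599% and 0.724% after thinning, so that the shares in gated cells lie above the shares there. Those barcodes had median depths of 3379 and 3629 UMIs before thinning, and 896 and 862 of them held fewer than 1000 UMIs and were left out.

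The comparison of hKO with WT asks how the gated CD4 cells differ when tumors grow from hepatocytes without FABP5. Their number depended on the macrophage limit of the gate. They were 6.49% of hKO (187 of 2880, 5.62 to 7.46) and 11.3% of WT (250 of 2221, 9.97 to 12.6) barcodes with a Cd3 UMI, a log2 ratio of −0.79 (−1.07 to −0.51). Of the barcodes that met the conditions applied before it, the C1q limit removed 302 of 519 (58.2%) in hKO and 117 of 401 (29.2%) in WT. Without that limit the log2 ratio was −0.06 (−0.27 to 0.14). Among gated CD4, CD8 and regulatory cells together, the CD4 cells were 30.8% in hKO and 29.6% in WT.

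By the rule of size 227 genes (5.63% of 4034) were higher and 312 (7.73%) lower in hKO than in WT CD4 cells. The median log2 ratio of all 4034 genes was −0.19, and with ratios centred on it the split was 272 higher and 238 lower (53.3% higher, against 42.1% uncentred). In the trimmed set 361 genes (9.49% of 3803) passed, 190 higher and 171 lower. Both sets called 222 genes the same way, 156 higher and 66 lower, while 317 were called only with all cells. In the CD8 cells 164 genes (4.22% of 3888) were higher and 202 (5.20%) lower.

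Many genes at the extremes are known from other cell types. The 15 highest included the hepatocyte genes Mup20 (1126 CPM in hKO and 34.0 CPM in WT cells), Ugt2b34 (142.6 and 0.873 CPM) and Cyp2a5 (378.9 and 0 CPM), which also rose in CD8 cells. S100a8, a neutrophil calprotectin gene, rose too (141.3 and 2.62 CPM), with 93 of its 110 hKO UMIs in 1 cell. The 15 lowest included the endothelial genes Ramp2 (1.28 and 100.4 CPM), Cavin2 (2.57 and 159.7 CPM) and Clec4g (8.99 and 269.7 CPM), and Kdr, an endothelial growth factor receptor, among them had 6 hKO and 254 WT UMIs in all cells (log2 −4.85) but 0 and 4 UMIs in the trimmed set. The hepatocyte, neutrophil and endothelial marker shares given above moved the same way as these genes, and their part was not tested beyond the trimmed set. S100a8, Clec4g and Kdr are themselves on those marker lists. Their match with the shares, and the drop of Kdr on trimming, are therefore partly built in. Mup20, Ugt2b34, Cyp2a5, Ramp2 and Cavin2 are not on the lists. A further 64 genes were called the same way with and without trimming and held by the CD4 cells at no less than 1.5 times the level of barcodes with no Cd3 UMI (28 higher, 36 lower). Several genes described next were picked from these after their values were seen.

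Among the genes that rose were 3 inflammatory chemokines. Ccl5 had 8971 CPM in hKO and 2658 CPM in WT cells (log2 ratio 1.75, 1.69 to 1.82). Ccl4 had 553.5 CPM in hKO and 140.5 CPM in WT (log2 1.98, 1.71 to 2.25), and Ccl3 had 169.5 and 34.0 CPM (log2 2.32, 1.79 to 2.87). All 3 were higher in hKO in the trimmed set as well, with log2 ratios of 1.51, 1.96 and 2.54 in that order.

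The chemokine sums were spread unequally over cells. Ccl5 was found in 121 hKO cells (64.7%) and 143 WT cells (57.2%), and 17 hKO and 20 WT cells held 50% of it. Ccl4 was found in 45 hKO cells (24.1%) and 33 WT cells (13.2%), but 3 hKO cells held 50% of its hKO UMIs, and the richest had 132 of 431. For Ccl3, found in 22 hKO cells (11.8%) and 17 WT cells (6.80%), 1 hKO cell held 62 of 132 UMIs. Trimming did not remove these rich cells: there 2 hKO cells held 50% of the Ccl4 UMIs, and 1 held 62 of 108 Ccl3 UMIs. Barcodes with no Cd3 UMI had Ccl4 in 14.4% of hKO and 12.4% of WT, and Ccl3 in 7.51% and 9.66%. The WT shares of both genes thus do not stand out from those barcodes. Other cell types are among them, so their shares do not measure stray transcripts, and the source of the WT UMIs was not tested. After thinning to 1000 UMIs a Ccl5 transcript was left in 56.7% of hKO (49.3 to 63.9) and 45.6% of WT cells (39.3 to 52.0), against 9.94% and 7.02% of barcodes with no Cd3 UMI. The ratio of Ccl5 sums was thus larger than the ratio of the shares of cells with it.

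Of 10 cytotoxic effector genes 1 rose (Gzmb) and 1 fell (Klrk1), with a median of −0.09, and −0.51 in the trimmed set. Gzmb, encoding granzyme B, had 155.4 CPM in hKO and 62.8 CPM in WT (log2 1.31, 0.87 to 1.75), with 4 hKO cells holding 50% of its UMIs. Havcr2, the inhibitory receptor TIM-3, had 91.2 CPM in hKO and 30.5 CPM in WT (log2 1.58, 0.97 to 2.21). Other effector and inhibitory genes did not pass the rule: Tox had 2047 CPM in hKO and 1306 CPM in WT (log2 0.65), Pdcd1 (PD-1) 55.2 and 39.3 CPM, Ctla4 280.0 and 341.2 CPM, Gzmk 223.5 and 159.7 CPM, and Nkg7 1038 and 623.1 CPM. Klrk1, the activating receptor NKG2D, was the one that fell (18.0 CPM in hKO and 82.0 CPM in WT). Its fall lay with cells without a Cd4 UMI, which in the trimmed set held 0 hKO and 45 WT UMIs of it. Trimmed cells with a Cd4 UMI held 5 and 3.

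S100 proteins and galectin 1, abundant in effector memory cells, rose too. S100a4 had 1230 CPM in hKO and 279.3 CPM in WT (log2 2.14, 1.96 to 2.33), S100a6 959.4 and 349.1 CPM (log2 1.46), and Lgals1 619.0 and 229.5 CPM (log2 1.43). The same genes were higher in hKO barcodes with no Cd3 UMI, with log2 ratios of 1.46, 1.22 and 1.41 in that order, and in CD8 cells. An S100a4 UMI was found in 73.3% of hKO and 44.0% of WT CD4 cells, and after thinning in 52.9% and 18.0%, against 17.3% and 9.08% of barcodes with no Cd3 UMI. Hspa1b, an inducible HSP70 gene, rose with a log2 ratio of 2.06, beside 2.43 in barcodes with no Cd3 UMI.

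The receptor for the survival cytokine IL-7 and the gene Bcl2 had lower values in hKO, short of the rule of size in all cells. Il7r had 441.8 CPM in hKO (396.3 to 491.0) and 841.3 CPM in WT (789.0 to 896.1), a log2 ratio of −0.93 (−1.11 to −0.75) that missed the rule, while barcodes with no Cd3 UMI had 0.46. An Il7r UMI was found in 41.2% of hKO and 68.8% of WT cells, and after thinning in 23.5% (17.6 to 30.3) and 44.8% (38.5 to 51.2), against 4.89% and 3.35% of barcodes with no Cd3 UMI. Bcl2, which opposes cell death downstream of IL-7, had 648.6 and 1225 CPM (log2 −0.92, −1.07 to −0.77), and −1.11 in the trimmed set, where it passed. Bcl2l11, which encodes the death-promoting BIM that BCL2 binds, fell (24.4 CPM in hKO and 70.7 CPM in WT, log2 −1.53).

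Of 19 residency and retention genes 3 rose (S100a4, S100a6 and Lgals1, above) and 3 fell (Itga1, Itgb1 and Gpr183), with a median of 0.04, and Gpr183 no longer passed in the trimmed set (−0.70). Itga1, the integrin alpha 1 chain of collagen-binding resident cells, had 46.2 CPM in hKO and 272.3 CPM in WT (log2 −2.56), and Itgb1, its beta partner, 418.7 and 963.5 CPM (log2 −1.20). Trat1, Slamf6 and Il12rb2 fell as well. Trat1, a T cell receptor adaptor, had 56.5 and 151.8 CPM (log2 −1.43), and Slamf6 had 155.4 and 314.2 CPM (log2 −1.02). Il12rb2, the inducible IL-12 receptor chain of Th1 cells, had 15.4 and 73.3 CPM (log2 −2.25, −3.26 to −1.37). Itga1, Itgb1, Trat1, Slamf6 and Il12rb2 were also called lower in the trimmed set. With centred ratios Slamf6 was at −0.83 and no longer passed.

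Further T cell genes that fell had other functions. Kcnq5, a potassium channel gene, had 214.5 CPM in hKO and 613.5 CPM in WT (log2 −1.52, −1.77 to −1.27). Txnip, an inhibitor of glucose uptake, had 168.2 and 410.2 CPM (log2 −1.29), and Tsc22d3, the glucocorticoid-induced leucine zipper GILZ, 69.4 and 157.1 CPM (log2 −1.18). Dusp2, a phosphatase induced on T cell activation, had 44.9 and 99.5 CPM (log2 −1.15). Each of these 4 was called lower in the trimmed set as well. With centred ratios Tsc22d3 and Dusp2 no longer passed. Txnip, Tsc22d3 and Dusp2 also had ratios below 0 in CD8 cells, at −1.05, −0.88 and −1.55 in that order.

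**Figure D3:**
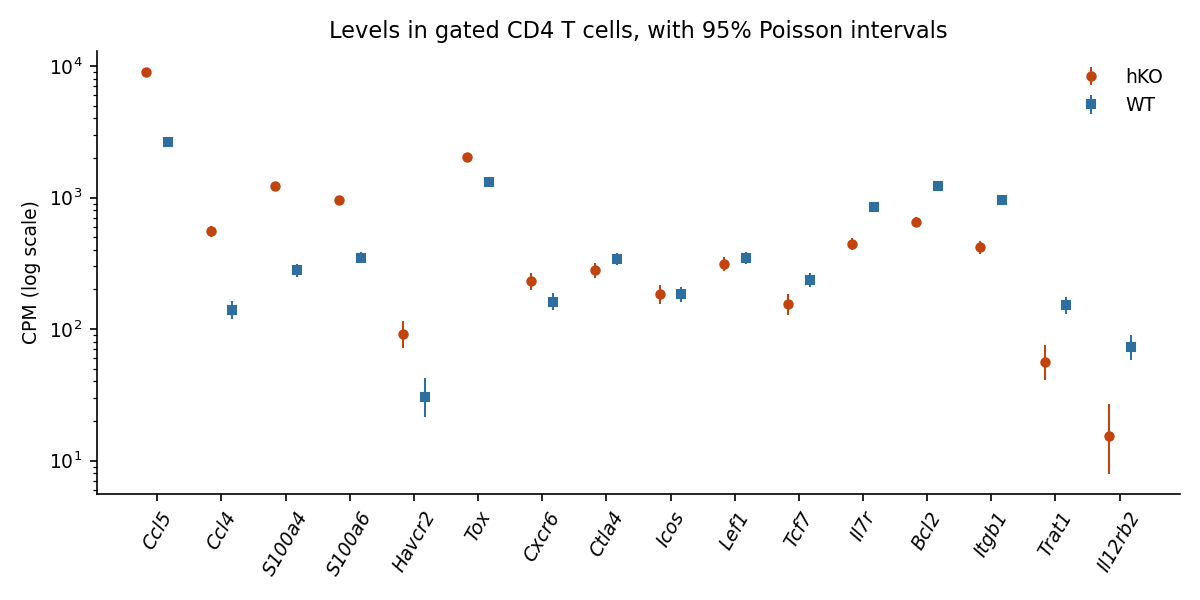
CPM (log scale) of 16 genes summed over 187 hKO (circles) and 250 WT (squares) gated CD4 T cells, with exact 95% Poisson intervals. Ccl5, Ccl4, S100a4, S100a6 and Havcr2 lie higher in hKO, Il7r, Bcl2, Itgb1, Trat1 and Il12rb2 lie lower, and Icos (184.9 and 183.3 CPM) lies level.

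The gene lists were read against the median of −0.19 over 7124 genes at 20 CPM or more, of which 3.19% passed the rule higher and 4.38% lower (a gene between 20 and 50 CPM counts as measured and could not pass). Of 14 measured naive and recirculation genes, 0 rose and 2 fell (Cd55 and Klf2), with a list median of −0.77. All 14 had ratios below 0, as did 12 of 14 in the trimmed set (median −0.68). Klf2, which drives S1pr1, had 172.1 CPM in hKO and 354.3 CPM in WT (log2 −1.04), Tcf7 154.1 and 237.4 CPM (log2 −0.62), and Lef1 312.1 and 348.2 CPM (log2 −0.16). Neither call held in the trimmed set, where Klf2 was at −0.92 and Cd55, at −2.17 with all cells, was at 0.37 (−1.20 to 1.92). Centred, Klf2 was at −0.85 and did not pass. Ccr7, the lymph node homing receptor, had 14.1 and 19.2 CPM.

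Few genes of the helper lineage lists passed the rule. Among 14 Th1 genes 1 rose (Ccl5) and 2 fell (Il12rb2 and Ly6c2), with a median of −0.42, and Ly6c2 no longer passed in the trimmed set (−0.96). Tbx21 (T-bet) had 59.1 CPM in hKO and 92.5 CPM in WT, Ifng (interferon gamma) 47.5 and 62.8 CPM, and Stat4, the signal transducer of IL-12, 280.0 and 491.3 CPM, none past the rule. The Th17 list had 8 measured genes, of which 1 rose (Il23r, 83.5 and 30.5 CPM, log2 1.45), with a median of 0.55. Il23r was also at a log2 ratio of 1.67 in barcodes with no Cd3 UMI, and it was at −1.78 (−5.01 to 0.45) when Cd4 was required of all gated cells. In the trimmed set its cells with Cd4 held 2 hKO and 0 WT UMIs. Il17a had 25 UMIs in 4 hKO cells and 0 in WT, but 1 UMI in 1 hKO cell of the trimmed set. Of 7 follicular helper genes 1 fell (Slamf6), Bcl6 had 29.5 and 41.9 CPM, and Gata3, the Th2 factor, had 83.5 and 88.1 CPM.

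Cell cycle genes had the highest median among the T cell lists that kept it on trimming. Of 13 measured, 2 rose (Top2a, 104.0 CPM in hKO and 41.0 CPM in WT, and Birc5, 50.1 and 14.0 CPM) and 0 fell, with a median of 0.72, and 0.81 in the trimmed set. These UMIs lay in few cells: 11 of 187 hKO cells (5.88%) and 9 of 250 WT cells (3.60%) had at least 3 UMIs of 7 cycle genes. In cells of at most 8000 UMIs the log2 ratio of Top2a was 0.51. Mki67 had 84.8 and 60.2 CPM and did not pass. The rise was not particular to CD4 cells: in CD8 cells the list median was 0.80, with 15 of 15 measured genes above 0.

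The cytokine list had 4 of 13 genes higher (Ccl3, Ccl4, Ccl5 and Il10) and 0 lower, with a median of 0.51, but −0.24 in the trimmed set, where Il10 no longer passed. The checkpoint list had 1 of 9 higher (Havcr2) and 1 lower (Nrp1), with medians of 0.49 and, trimmed, −0.24, where Nrp1 was also at −0.24 and no longer passed. Among 17 T cell receptor signaling genes none passed in either direction (median −0.10), nor did any of 15 activation genes (median −0.05) or 12 MHC class I genes (median −0.16). Apoptosis and survival genes had 0 of 13 higher and 1 lower (Bcl2l11, median −0.41). Among 23 interferon response genes 1 rose (Ifi27l2a) and 2 fell (Bst2 and Iigp1), with a median of −0.04, but neither fall passed in the trimmed set (−0.76 and −0.67). Among 17 immediate early genes 1 fell (Dusp2, median −0.34). The 13 glucocorticoid-responsive genes had 3 lower (Txnip, Tsc22d3 and Sgk1), with medians of −0.65 and, trimmed, −0.01, where Sgk1 was at 0.035 and no longer passed.

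Lipid genes were of interest because of the gene deleted. Fabp5 itself had 7 UMIs in 4 hKO cells and 7 in 7 WT cells, or 8.99 and 6.11 CPM (log2 0.56, −1.18 to 2.30), a level at which no difference was detectable. Of 14 fatty acid handling genes 0 rose and 1 fell (Fabp4, 42.4 CPM in hKO and 295.0 CPM in WT), with a median of 0.05. Fabp4 is also an endothelial gene, and its log2 ratio was −2.80 with all cells and −1.40 in the trimmed set. Fabp4 is itself one of the endothelial markers used for trimming, so a change on trimming is partly built in. The glycolysis list had 1 of 13 higher (Mif, 220.9 and 91.6 CPM) and 0 lower.

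**Figure D4:**
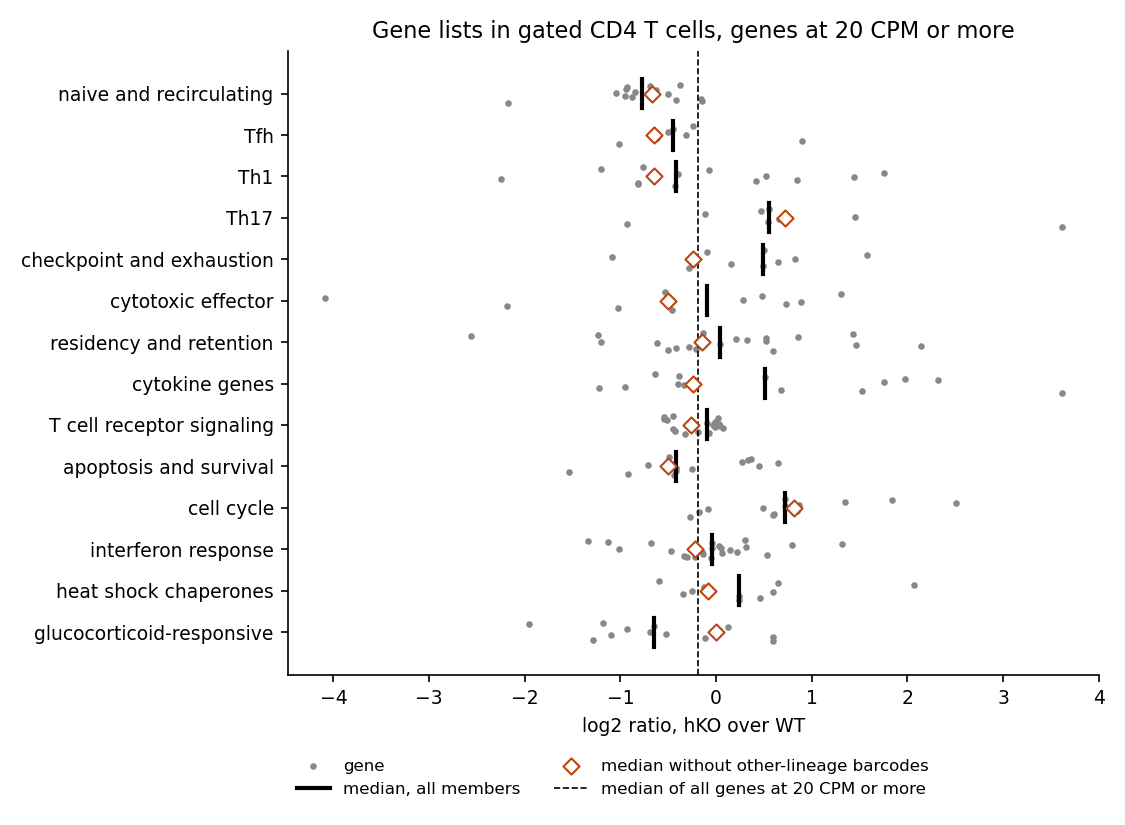
Log2 ratio (hKO over WT) of each gene at 20 CPM or more in 14 lists, with the list median over all gated cells (bar) and over the trimmed set (diamond); the dashed line is the median of all 7124 genes. The naive and recirculating genes all lie below 0, and the cell cycle median lies at 0.72, while the checkpoint, cytokine and glucocorticoid-responsive medians shift when other-lineage barcodes are left out.

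The cells with and without a Cd4 UMI were then compared between the libraries separately, in the trimmed set. With Cd4, 219 genes (5.73% of 3821) were higher and 234 (6.12%) lower in hKO. Without Cd4, 235 (5.52% of 4260) were higher and 211 (4.95%) lower. The chemokine and granzyme differences lay with Cd4-positive cells. Ccl5 there had 11788 CPM in hKO and 4174 CPM in WT (log2 1.5, 1.42 to 1.57), against 1044 and 1377 CPM without Cd4 (log2 −0.40, −0.75 to −0.06). Gzmb had 231.0 and 58.2 CPM with Cd4, and 20.9 and 103.2 CPM without it, where 2 hKO and 20 WT UMIs stood behind it.

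The difference in Il7r lay with Cd4-positive cells too. Il7r had 312.5 CPM in hKO and 866.5 CPM in WT cells with Cd4 (log2 −1.47, −1.78 to −1.17), which passed the rule. Without Cd4 it had 1180 and 1238 CPM (log2 −0.07, −0.41 to 0.26). Tcf7 fell with Cd4 (138.6 and 288.8 CPM, log2 −1.06) and had 250.6 and 232.1 CPM without it. Bcl2 did not follow Il7r, with log2 ratios of −0.91 with Cd4 and −1.54 without it. The S100a4 difference was alike in both, with log2 ratios of 2.10 and 2.38, as was that of Itga1, at −2.23 and −2.25. Icos had 130.4 and 205.7 CPM with Cd4 and rose without it (584.8 CPM in hKO and 175.4 CPM in WT). The differences between these pairs of ratios were not tested.

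CD8 cells of the same libraries gave other values for several of these genes. Ccl5 had 11131 CPM in hKO and 8674 CPM in WT CD8 cells (log2 0.36), where Ccl4 was at −0.91 and Gzmb at −0.79. Havcr2 was at 0.27, Slamf6 at 0.11 and Itgb1 at −0.24 in CD8 cells, none past the rule. Genes called the same way in CD4 and CD8 cells were S100a4 (2.43 in CD8), S100a6 (1.92), Trat1 (−2.48), Il12rb2 (−1.72) and Itga1 (−1.53). Il7r was at −0.70 and Bcl2 at −0.29 in CD8 cells. The CD4 and CD8 cells come from the same 2 pools, so they are not separate evidence.

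**Figure D5:**
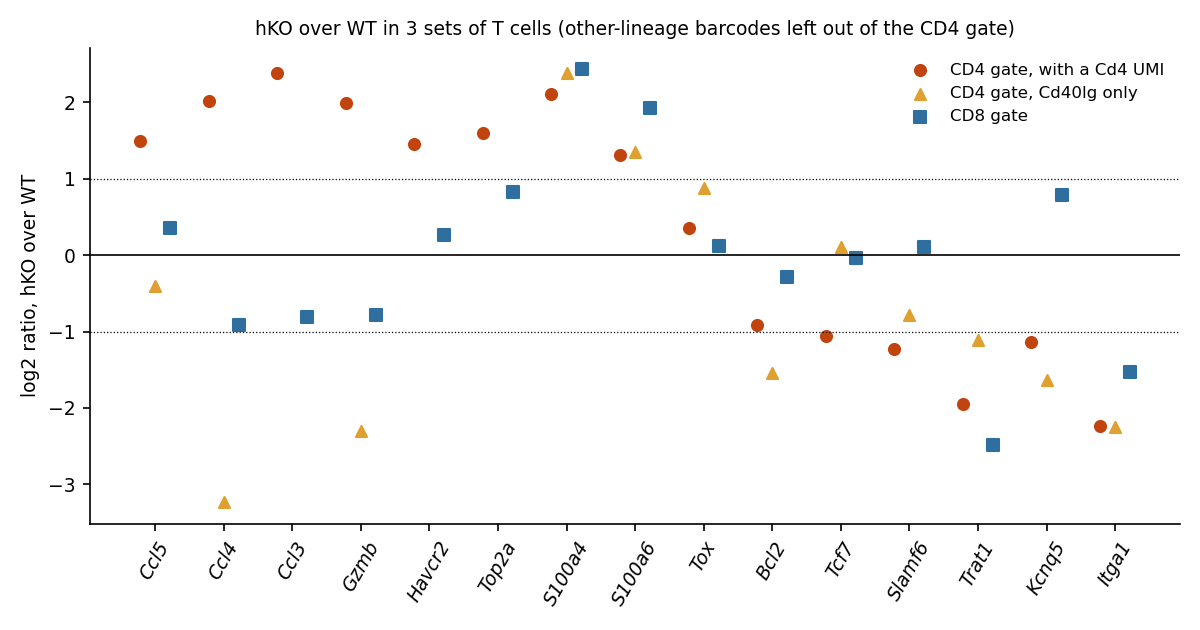
Log2 ratio (hKO over WT) of 15 genes in Cd4-positive (circles) and Cd40lg-only (triangles) cells of the trimmed CD4 gate and in the CD8 gate (squares); dotted lines mark a log2 ratio of 1 in size, and a symbol is left out where both libraries held 3 UMIs or fewer. Ccl5, Ccl4 and Gzmb lie above 1 in Cd4-positive cells only, while S100a4 lies above 2 and Itga1 below −1 in each of the 3 sets.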

How the data were processed

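Single-cell RNA-seq of pooled liver tumors gave 1 library per group. The deposited matrices hold UMI counts per gene and barcode, filtered by Cell Ranger 7.1.0 per the file headers; gene and barcode names come from the deposited lists. The submitters' processing notes name Cell Ranger, R 3.0, Seurat 3 and mm9, in no stated role. Other upstream settings are not given in the sources used here. Promoters come from RefSeq tables of GRCm38.p6, matched by symbol, so their coordinates are not those of mm9.

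Counts were read with Python 3.11.15, numpy 2.4.6, pandas 2.3.3 and scanpy 1.11.5. UMIs of the gated cells were summed per library and divided by their total (778646 in hKO and 1145866 in WT) to give CPM. Ratios have exact conditional binomial 95% intervals, levels exact Poisson and shares exact Clopper-Pearson intervals (scipy 1.17.1). UMIs are molecules, and intervals cover counting error only. Thinned values come from a single random draw, whose error the intervals leave out. Where a library held 0 UMIs, 3 counts stood in for it as a bound; 3 counts equal 3.85 CPM in hKO and 2.62 CPM in WT. The rule of size was tested on simulated counts with Poisson error only. These had no variation between cells or pools, so the outcome does not carry over to these data. Figures were drawn with matplotlib 3.10.9.

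The cells, gene lists and rules were chosen with earlier results of these data known. Named genes were the 15 highest and 15 lowest past the rule of size, up to 4 per list, the helper state genes and Fabp5 (some of these, and a split of the cells by naive markers, are not reported here), and, against CD8 and regulatory cells, the 10 leading each way. Others were picked after their values were seen: the genes that separate cells with and without Cd4 or Cxcr6, the genes held by T cells and called with and without trimming, and Il7r, Itgb1, Stat4, Klrk1, Icos and Il10 where they are followed into these sets.

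Doublets were not removed in the values reported. Scrublet's own threshold marked 0.0175% of hKO and 0% of WT barcodes, too few to be useful, so an alternative removed its highest scores at expected rates of 9.16% and 7.88%, which held 15 hKO and 13 WT gated cells. Other alternatives changed the gate, the depth, the floor, the fold and the weighting of cells.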

Additional observations from a re-analysis of the deposited data

Results flagged for a closer look

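These 5 genes had hKO over WT ratios in opposite directions in the CD4 and CD8 cells of the same libraries, each past the rule of size in the CD4 cells. The difference between the ratios was not tested, since each group had 1 library. The chemokine gene Ccl3 was at a log2 ratio of 2.32 (1.79 to 2.87) in CD4 cells and −0.81 (−0.99 to −0.64) in CD8 cells. Ccl4, its neighbor in function, was at 1.98 (1.71 to 2.25) in CD4 cells and −0.91 (−1.01 to −0.81) in CD8 cells. Gzmb was at 1.31 (0.87 to 1.75) in CD4 cells and −0.79 (−0.95 to −0.63) in CD8 cells. For these 3 genes few hKO cells carried the CD4 sums: 1 cell held 132 of 431 Ccl4 UMIs and 1 held 62 of 132 Ccl3 UMIs. Kcnq5 went the other way, at −1.52 (−1.77 to −1.27) in CD4 cells and 0.78 (0.52 to 1.05) in CD8 cells. Pkhd1, a gene of bile duct cells, had 99 UMIs in 1 hKO cell and 0 in WT CD4 cells, a log2 ratio of at least 5.60, and was at −5.50 (−10.83 to −2.97) in CD8 cells.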

How the results depend on the processing

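No paired analysis was possible because each group had 1 library. The share of gated cells among Cd3-positive barcodes (log2 −0.79) was at −1.10 with a mitochondrial limit of 10%, −1.15 without cells holding Klrb1c, Zbtb16, Ncr1 or Tyrobp, and −0.064 with no C1q limit. The counts of 227 higher and 312 lower genes came to 436 and 687 at a floor of 20 CPM, 141 and 153 at 100 CPM, 382 and 755 at 1.5-fold, and 39 and 42 among genes held at no less than 1.5 times the level of barcodes with no Cd3 UMI. The lower genes alone moved past 1.5 times to 171 in the trimmed set, 161 with no C1q limit, 138 in cells of at most 8000 UMIs and 191 with every cell weighted alike. Centring gave 272 and 238. The number of lists with a median at least 0.5 from that of all genes was 6, and 3 both in the trimmed set and after thinning. The difference in the thinned Cxcr6 share (2.72 percentage points) was 11.4 with cells thinned to 2000 UMIs and 9.49 without Scrublet's doublets. It was −0.41 at 1000 UMIs and 500 genes, −0.22 without cells holding Klrb1c, Zbtb16, Ncr1 or Tyrobp, and −0.12 with no C1q limit. These values also differ by the random draw of the thinning. At 1000 UMIs and 500 genes 186 of 187 hKO cells remained, yet the new draw gave 15.6% of hKO cells with Cxcr6, against 18.7%. Against CD8 cells the 34 higher and 22 lower genes were 34 to 44 and 20 to 32. Direction turned for 3 genes past the rule of size with UMIs in both libraries under the alternative. These were Il23r (−1.78 with Cd4 required) and, in the trimmed set, Cd55 (0.37) and Sgk1 (0.035), each with an interval that covers 0. The cause was not tested. Over named genes, 2127 of the values under an alternative stayed within the counting interval, 410 moved and 3 changed direction. A change of direction was counted only for genes past the rule of size with UMIs in both libraries. Other values that changed sign are among those that stayed or moved. Ccl5 ranged over 1.29 to 2.06, Ccl4 over 0.82 to 2.47, Ccl3 over 1.43 to 2.86 and Gzmb over 0.75 to 1.94. Depth limits rare transcripts: 3 counts are 3.85 CPM in hKO and 2.62 CPM in WT cells, and Fabp5 lay near it.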

Other observations

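Among the gated cells, 75 of 187 hKO cells (40.1%) and 58 of 250 WT cells (23.2%) had a UMI of Zbtb16, Klrb1c, Ncr1 or Tyrobp, markers of innate-like and natural killer cells. Tyrobp, an adaptor of natural killer and myeloid cells, was found in 58 hKO and 35 WT cells, and in 64.7% of hKO and 54.7% of WT barcodes with no Cd3 UMI. Zbtb16 was found in 22 hKO cells (11.8%) and 22 WT cells (8.80%), and in 4.55% and 12.8% of barcodes with no Cd3 UMI. Klrb1c, which encodes NK1.1, was found in 1 hKO and 10 WT cells, and Ncr1 in 0 and 3.

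Snrpg, a core protein of spliceosomal RNPs, rose in hKO CD4 cells (317.2 CPM in hKO and 110.8 CPM in WT, log2 1.52). Snrpg was at 1.67 in CD8 cells and 1.38 in barcodes with no Cd3 UMI. It was named after its value was seen.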
